A study of Mus musculus with 6 samples.

Results

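Respiratory complex I, NADH:ubiquinone oxidoreductase, is the entry point of the mitochondrial electron transport chain. It takes electrons from NADH, passes them along iron-sulfur clusters to ubiquinone and pumps protons across the inner membrane. In fat cells it helps to oxidise the products of fatty acid, glucose and amino acid breakdown. Its subunits are grouped into an N module that oxidises NADH, a Q module that reduces ubiquinone, and a proximal and a distal membrane arm. The subunits followed here are coded by nuclear genes, and the genes were chosen by name. Of 36 listed genes, 34 had a probe set that the array annotation assigns to a single gene, among 18193 genes measured in this way. Ndufs6 and Ndufa11 were the 2 without one, because their probe sets are shared with the near-copies Ndufs6b and Ndufa11b, and they are given no value. Ndufa4 is in the list by its name, although its protein is now placed with complex IV, and it is described separately.

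White adipose tissue was taken from C57Bl6 female mice aged 6 months, 3 wild type (WT) and 3 homozygous for a deletion of Ksr2 (KSR2-/-). KSR2, kinase suppressor of Ras 2, assembles the kinases of the ERK pathway, and mice without it are known to become obese. The RNA of each mouse was hybridised to 1 Affymetrix array, so each value below is 1 animal; the arrays are called WT1 to WT3 and KO1 to KO3, in the order in which values are listed. Which fat depot was taken, and which part of Ksr2 was deleted, was not given in the sources used here. Levels are log2 of the deposited intensity, and differences are KSR2-/- minus WT on that scale, with the standard error (SE) of the fit. A gene was called at an adjusted p under 0.05, by limma with Benjamini-Hochberg adjustment over all 18193 genes.

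The arrays differed in ways that the genotype does not describe. By the animal numbers in the labels, WT1, WT2, KO1 and KO2 belong to a higher-numbered series and WT3 and KO3 to a lower-numbered one. The Ksr2 probe set read 4.74, 4.04 and 4.47 in WT and 4.47, 4.28 and 4.26 in KSR2-/-. The genotypes overlapped (adjusted p = 0.935 by limma). Whether its probes lie in the deleted part is unknown, so it checks nothing about the labels. Adipoq, which codes for the adipocyte hormone adiponectin, read between 12.70 and 13.58 on the 6 arrays, so this defining marker of the labelled tissue was present in every sample. WT3 stood apart in signs of RNA quality: its Gapdh control probe sets differed by 4.18 between the 3′ and 5′ ends, against 0.07 to 1.46 on the other arrays, and its Actb control probe sets by 2.59, against 1.02 to 1.63. It also had the highest mean level of 6 skeletal muscle genes, 7.46 against 4.17 to 5.40, and of 6 mammary epithelium genes, 6.78 against 4.44 to 5.73. Ucp1, the uncoupling protein of thermogenic fat, read 7.27 in WT3 and 6.25 in KO3 and between 3.79 and 4.24 on the other 4 arrays.

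All 34 measured subunits of the list read lower in KSR2-/- fat, where 55.6% of all genes did, and none passed the test. Ndufb1, a complex I subunit outside the list, was measured as well and differed by 0.15 (SE 0.20). The median difference of the 34 was −0.57, which corresponds to 67.6% of the WT level, against −0.04 over all genes. Individual differences ran from −0.78 for Ndufa6 to −0.19 for Ndufb4, or from 58.2% to 87.4% of WT. Adjusted p-values by limma lay between 0.268 and 0.856, and 0.0055% of all genes, a single gene that was higher, passed. At an unadjusted p under 0.05, 12 subunits were lower and 0 were higher, while 5.38% of all genes were lower and 6.71% higher at that p. In 13 subunits all KSR2-/- values lay below all WT values, which held for 8.56% of all genes, and in 0 did they all lie above, which held for 7.72%. The count of 12 depended on single arrays: it was 1 without WT2, 4 without WT3, 2 without KO1, 5 without KO2 and 18 without KO3. The share of all genes lower at that p moved as well, to 2.86%, 3.82%, 3.06%, 2.93% and 7.51% in the same order. The median of the subunits was −0.33 without KO1.

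**Figure D1:**
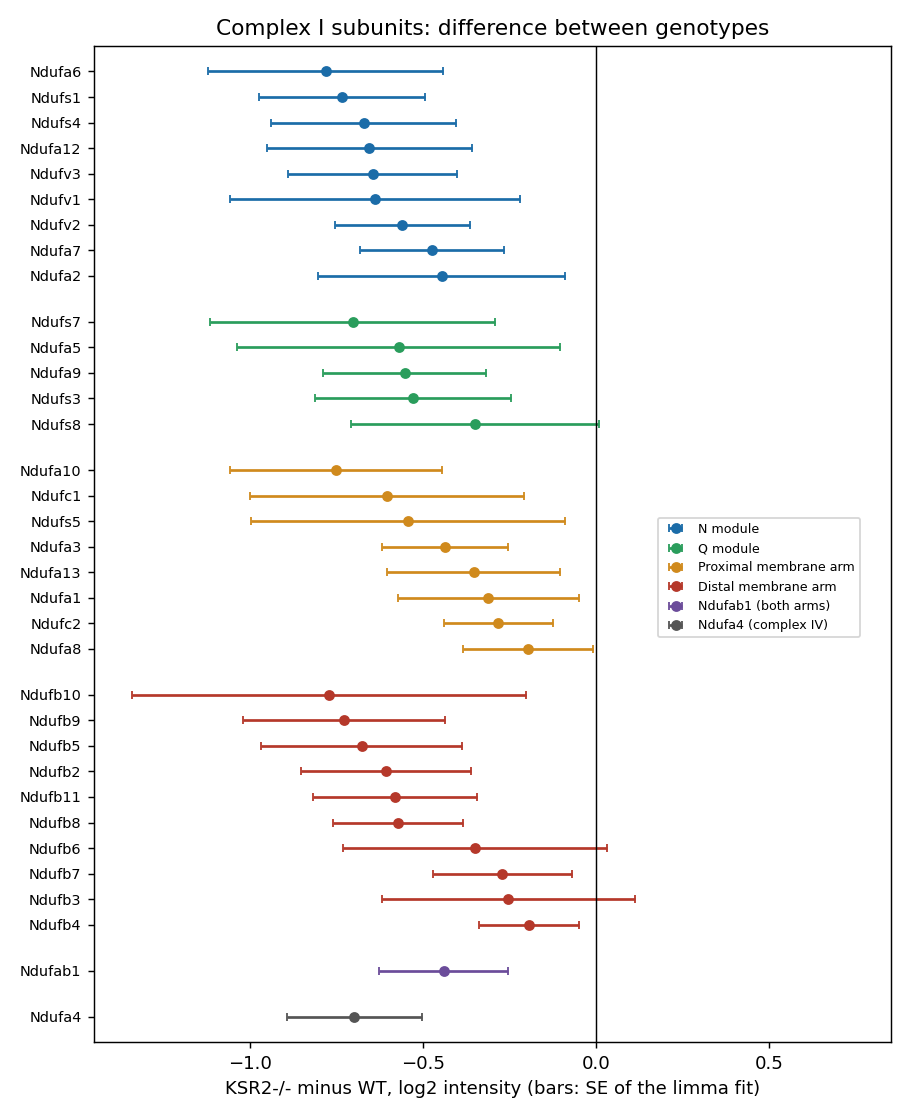
Difference between genotypes for each of the 34 measured subunits, KSR2-/- minus WT in log2 intensity on the x axis, grouped and coloured by module; points are the fitted difference and bars its SE (3 arrays per genotype). All points lie left of 0, from −0.78 to −0.19, and 31 of them lie more than 1 SE from 0.

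Most of the subunits had bright probe sets, although brightness also depends on the probes and does not rank the genes by RNA amount. Of the 34, 33 fell in the brightest 10% of all genes by mean level, and the median subunit stood at percentile 98.0. Of 1820 genes of that brightness 49.2% were lower, their median difference was 0.007, 9.12% were lower at an unadjusted p under 0.05 and 9.45% did not overlap in the lower direction. The exception was Ndufb4, whose single-gene probe set read near the floor of the arrays. It gave 2.72, 2.64 and 2.81 in WT and 2.53, 2.46 and 2.59 in KSR2-/-, while its other probe sets are shared with Ndufb4b and Ndufb4c, so the value is a poor measure of that subunit. For comparison with another abundant group, 48 genes of cytosolic ribosomal proteins, a list taken after values had been seen, had a median difference of −0.01 and 26 of them were lower.

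The N module binds NADH and flavin and holds most of the iron-sulfur clusters. Its 9 measured subunits had a median difference of −0.65. At an unadjusted p under 0.05, 4 were lower (5.38% of all genes), and 5 did not overlap (8.56%). Ndufs1, the subunit that carries several of these clusters, read 9.63, 10.40 and 10.04 in WT and 9.01, 9.37 and 9.47 in KSR2-/-. Every KSR2-/- value was below the lowest WT value, and the difference was −0.73 (SE 0.24, adjusted p = 0.311 by limma). Ndufv2, which holds an iron-sulfur cluster beside the flavin site, read 11.29, 11.74 and 11.38 in WT and 10.71, 10.87 and 11.14 in KSR2-/-. Its groups did not overlap either, with a difference of −0.56 (SE 0.20, adjusted p = 0.327 by limma).

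Ndufv1, the flavin-binding subunit that oxidises NADH, read 10.53, 11.40 and 11.19 in WT and 9.54, 10.58 and 11.09 in KSR2-/-. KO2 and KO3 both lay above WT1, and the difference of −0.64 had an SE of 0.42 (adjusted p = 0.627 by limma); it was −0.21 without KO1 and −0.98 without KO3. Another Ndufv1 probe set, with a WT mean of 10.45, had the same difference of −0.64 with an SE of 0.24. On it the genotypes did not overlap, although KO3, at 10.31, lay barely below WT1, at 10.32. On a further probe set, with a WT mean of 10.51, the genotypes overlapped. It differed by −0.62 with an SE of 0.51, and WT1, at 9.79, lay below KO2 and KO3, at 10.13 and 10.69. Ndufa2, an accessory subunit, read 11.01, 11.61 and 11.75 in WT and 10.27, 11.45 and 11.31 in KSR2-/-, so that only KO1 was below every WT array; its difference was −0.45, and −0.07 without KO1. The other N module subunits were Ndufa6 (−0.78), Ndufs4 (−0.67), Ndufa12 (−0.66), Ndufv3 (−0.65) and Ndufa7 (−0.47). Of these, Ndufs4, Ndufa12 and Ndufa7 had no overlap between genotypes.

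The Q module takes the electrons on to ubiquinone. Its 5 subunits had a median difference of −0.55, none was lower at an unadjusted p under 0.05, and in each of them the genotypes overlapped on the probe set used. Ndufs3 read 10.25, 10.85 and 10.82 in WT and 9.61, 10.21 and 10.51 in KSR2-/-, a difference of −0.53 (SE 0.28), or −0.28 without KO1. Ndufs7, which holds the last iron-sulfur cluster before ubiquinone, read 10.62, 11.49 and 11.46 in WT and 9.63, 10.87 and 10.96 in KSR2-/-. Both of these had KO1 lowest, and the difference for Ndufs7 was −0.70 (SE 0.41, adjusted p = 0.572 by limma), or −0.27 without KO1. A second Ndufs7 probe set read 10.41, 10.58 and 10.50 in WT and 9.54, 9.74 and 10.23 in KSR2-/-, a difference of −0.66 (SE 0.21) without overlap.

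Ndufs8, another iron-sulfur subunit of the Q module, read 10.46, 11.41 and 11.04 in WT and 10.01, 10.67 and 11.19 in KSR2-/-. KO3 was above both WT1 and WT3, and the difference was −0.35 (SE 0.36). It was −0.04 without KO1, −0.13 without WT2, −0.61 without WT1 and −0.64 without KO3. Ndufa9, an accessory subunit near the ubiquinone site, read 10.67, 11.18 and 10.93 in WT and 9.97, 10.46 and 10.69 in KSR2-/-; KO3 lay just above WT1, and the difference was −0.55 (SE 0.24), or −0.35 without KO1. Ndufa5 differed by −0.57 with the larger SE of 0.47. Across the 6 core subunits in the N and Q modules, those shared with bacterial forms of the enzyme, the median was −0.60, and across the 27 accessory subunits it was −0.55.

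**Figure D2:**
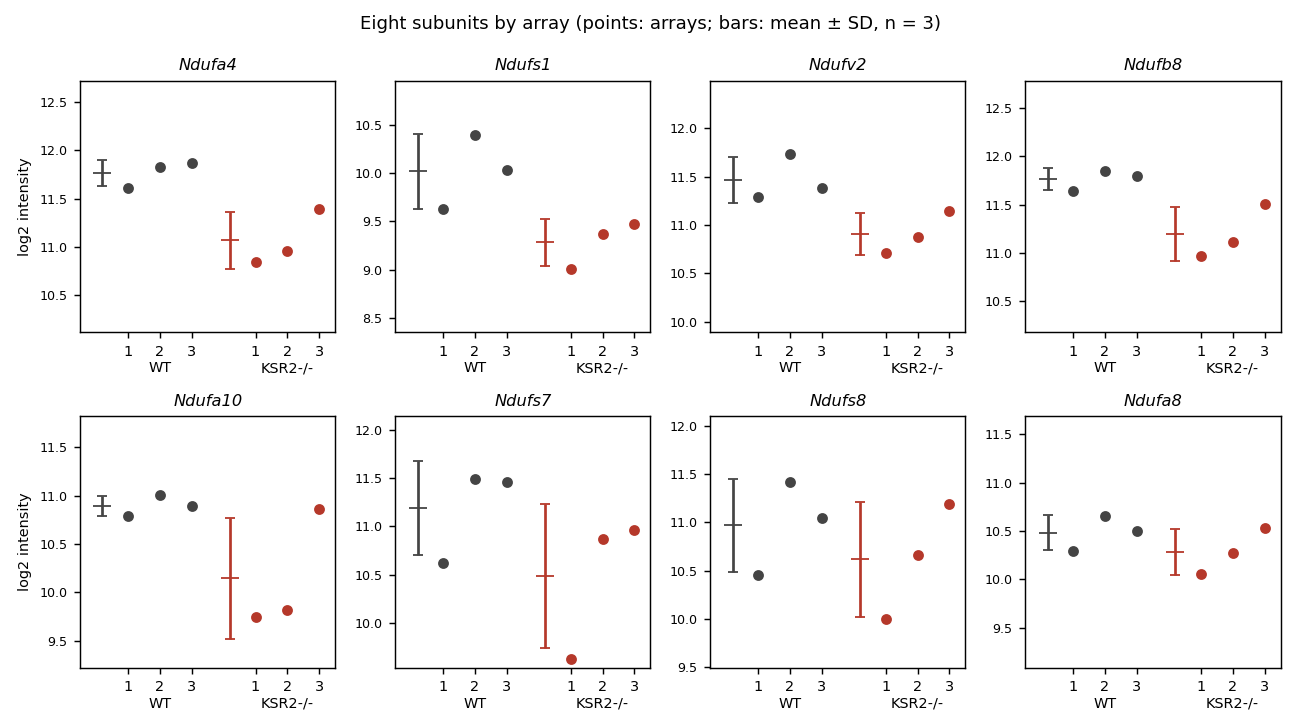
Log2 intensity of 8 subunits on each array. Points are arrays 1 to 3 of each genotype, with the mean ± SD (n = 3) to their left. The y axes have the same span in all panels, each centred on the mean of that subunit. Ndufa4, Ndufs1, Ndufv2 and Ndufb8 show no overlap between genotypes, whereas KO3 reached the WT range in Ndufa10, Ndufs7, Ndufs8 and Ndufa8.

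The proximal membrane arm joins the Q module to the rest of the membrane domain. Its 8 measured subunits had the smallest median of the modules, −0.40. At an unadjusted p under 0.05, 2 were lower (5.38% of all genes). Only 1 of the 8 had no overlap, which is near the share of all genes, 8.56%. Ndufa10 read 10.79, 11.00 and 10.89 in WT and 9.75, 9.82 and 10.86 in KSR2-/-. KO1 and KO2 were far below every WT array and KO3 lay within the WT range, so that the mean difference of −0.75 had an SE of 0.31 (adjusted p = 0.398 by limma). Without KO3, Ndufa10 was the single subunit of 34 to pass the test, with a difference of −1.11 and an adjusted p of 0.024 by limma, in a fit in which 816 genes, 4.49% of all, passed; over all alternatives its adjusted p ran from 0.024 to 0.841.

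Ndufa3, a small accessory subunit, read 12.17, 12.24 and 12.08 in WT and 11.55, 11.59 and 12.03 in KSR2-/-. It was the subunit of this arm without overlap, although KO3 and WT3 differed by only 0.04, and its difference was −0.44 (SE 0.18, adjusted p = 0.407 by limma). Ndufa8 had the smallest difference of the arm, −0.20 (SE 0.19): it read 10.30, 10.65 and 10.51 in WT and 10.06, 10.27 and 10.54 in KSR2-/-, with KO3 above WT1 and WT3. Its difference was −0.08 without KO1, −0.11 without WT2 and −0.32 without KO3. The other subunits of this arm were Ndufc1 (−0.60), Ndufs5 (−0.54), Ndufa13 (−0.35), Ndufa1 (−0.31) and Ndufc2 (−0.28). The order of arrays for Ndufc1 depended on the probe set: on the one used WT1 was highest, at 12.13, and KO2 lowest, at 10.35, whereas on another with a WT mean of 11.37 WT1 was the lowest WT array, at 11.12, and KO1 the lowest of all, at 10.28.

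The distal membrane arm is the outer part of the proton-pumping domain. Its 10 subunits had a median difference of −0.58. At an unadjusted p under 0.05, 4 were lower (5.38% of all genes), and 5, with the dim Ndufb4 among them, did not overlap (8.56%). Ndufb8 read 11.64, 11.85 and 11.80 in WT and 10.97, 11.11 and 11.50 in KSR2-/-, all KSR2-/- values being below all WT values. The difference was −0.57 (SE 0.19, adjusted p = 0.313 by limma). Ndufb9, a subunit at the tip of the arm, read 11.92, 12.36 and 12.16 in WT and 10.79, 11.63 and 11.83 in KSR2-/-, again without overlap, a difference of −0.73 (SE 0.29), or −0.41 without KO1. Ndufb10 had the largest difference of the arm, −0.77, and the largest SE of all subunits, 0.57. Ndufb5 (−0.68), Ndufb2 (−0.61) and Ndufb11 (−0.58) lay close to Ndufb8, while Ndufb6 (−0.35), Ndufb7 (−0.27) and Ndufb3 (−0.25) lay nearer to 0.

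Ndufab1, the mitochondrial acyl carrier protein found in both arms of the complex, read 11.88, 12.16 and 12.07 in WT and 11.34, 11.60 and 11.85 in KSR2-/-. The groups did not overlap, with a difference of −0.44 (SE 0.19, adjusted p = 0.413 by limma). Ndufa4 had the smallest p of the list: it read 11.61, 11.82 and 11.87 in WT and 10.85, 10.96 and 11.40 in KSR2-/-, without overlap. Its difference was −0.70 (SE 0.19, 61.6% of the WT level, adjusted p = 0.268 by limma). Leaving Ndufa4 out, 33 of 33 subunits were lower and their median was −0.56.

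Promoter sequences were set beside these values, since the subunits read lower together. The windows run from 250 bases before to 50 bases after each gene's start, in RefSeq's annotation of GRCm38.p6, and 31 of the 34 measured subunits were matched. Ndufa4 and Ndufb8 are shown because they had the smallest unadjusted p of the list and of the distal arm. The 250 bases before the start of Ndufa4 (chr6:11907451-11907700, minus strand) and of Ndufb8 (chr19:44555443-44555692, minus strand) are given 5′ to 3′, without capitals because none of the motifs searched was found in them.
Ndufa4: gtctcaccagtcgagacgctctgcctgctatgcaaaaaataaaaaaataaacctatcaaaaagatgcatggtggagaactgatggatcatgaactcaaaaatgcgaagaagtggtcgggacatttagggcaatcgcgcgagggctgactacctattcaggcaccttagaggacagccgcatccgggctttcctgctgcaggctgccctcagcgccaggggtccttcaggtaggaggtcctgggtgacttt
Ndufb8: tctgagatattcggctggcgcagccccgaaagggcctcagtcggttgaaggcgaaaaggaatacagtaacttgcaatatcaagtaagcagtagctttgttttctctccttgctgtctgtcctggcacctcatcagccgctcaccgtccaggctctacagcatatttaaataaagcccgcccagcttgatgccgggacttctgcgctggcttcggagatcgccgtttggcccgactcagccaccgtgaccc

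The letters searched, on both strands, were GCATGCGC (the core of the site of NRF1, a regulator of respiratory genes), CCGGAAG (an ETS site, bound by GABP), AAGGTCA (bound by ERR receptors) and AAGATGGC (a YY1 site). A gene with several starts was counted if any of its windows held the letters. At least 1 of the motifs was found in 15 of 31 subunit genes, 48.4%, and in 19.7% of all 27025 genes with such windows. The share was higher, 57.6%, in 33 genes of complexes II to V. The ETS letters were in 4 subunits, 12.9% against 9.93% of all and 39.4% of complexes II to V, and the ERR letters in 3, 9.68% against 5.38% and 18.2%. The YY1 letters were in 6 subunits, 19.4% against 3.19% of all genes and 9.09% of complexes II to V. In all 6 they lay on the gene's own strand and began 23 to 39 bases after the start. They contain ATG, and whether they overlap the start codon was not examined. These windows of 30 bases have the YY1 letters in capitals.
Ndufa3 (chr7:3617384-3617413, plus strand): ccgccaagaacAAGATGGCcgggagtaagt
Ndufa9 (chr6:126849097-126849126, minus strand): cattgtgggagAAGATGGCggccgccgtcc
Ndufb8 (chr19:44555393-44555422, minus strand): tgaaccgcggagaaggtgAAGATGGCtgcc
Ndufc1 (chr3:51408915-51408944, minus strand): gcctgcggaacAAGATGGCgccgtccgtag
Ndufs4 (chr13:114388045-114388074, minus strand): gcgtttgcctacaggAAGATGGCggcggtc
Ndufs7 (chr10:80249462-80249491, plus strand): aggccgaggccAAGATGGCggcgctggcgg

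The NRF1 core letters were in 2 subunits, 6.45% against 3.05% of all genes and 21.2% of complexes II to V. These windows of 30 bases have the core in capitals, which began 83 bases before the start of Ndufa6 and 8 bases before that of Ndufa8.
Ndufa6 (chr15:82354356-82354385, minus strand): tccgcggtagaGCATGCGCattgcagagcc
Ndufa8 (chr2:36049328-36049357, minus strand): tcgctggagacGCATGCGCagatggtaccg

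The 2 subunits with NRF1 letters had the largest difference of the list (Ndufa6, −0.78) and nearly the smallest (Ndufa8, −0.20). Those with YY1 letters ran from −0.70 (Ndufs7) to −0.44 (Ndufa3). A match describes letters in a window and was not tested as a binding site.

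The array-by-array pattern was shared by nearly all subunits. The median deviation of the subunits from their own WT mean was −0.27 in WT1, 0.17 in WT2, 0.09 in WT3, −1.01 in KO1, −0.41 in KO2 and −0.20 in KO3. KO1 was thus the lowest array and WT1 lay at about the level of KO3. KO1 was the lowest of the 6 arrays in 30 subunits, KO2 in 3 and KO3 in 1. The highest array was WT2 in 21 subunits, WT3 in 11 and WT1 in 2. KO1 lay below every WT array in 33 subunits, KO2 in 20 and KO3 in 17. In the brightest 10% of genes the median deviations were −0.26 in WT1, −0.18 in KO1, 0.07 in KO2 and 0.09 in KO3. The position of WT1 was thus shared with other bright genes and that of KO1 mostly was not. In complexes II to V the median deviations were −0.16, 0.16 and 0.02 in WT1 to WT3. They were −0.67, −0.35 and −0.22 in KO1 to KO3, so the low KO1 was shared with the genes of those complexes.

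**Figure D3:**
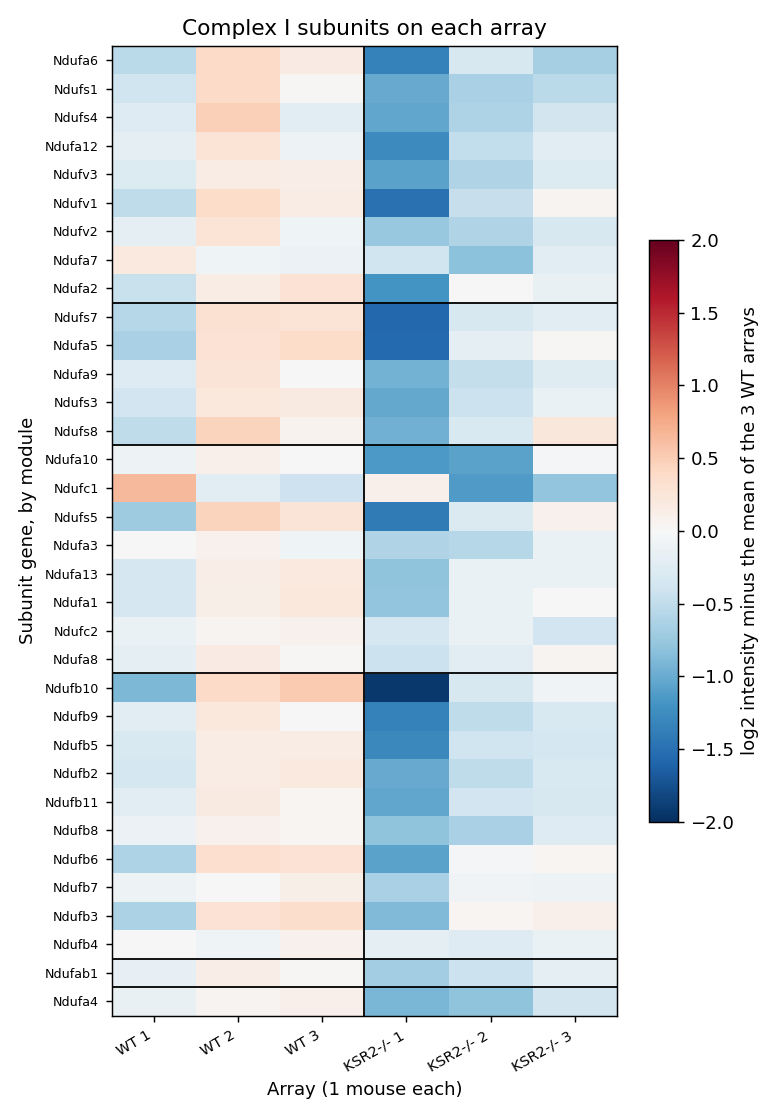
Log2 intensity of each subunit (rows, by module) on each array (columns) as the deviation from the gene's WT mean; blue is lower and red higher. The KO1 column is the lowest in 30 of 34 rows, and WT2 is the highest in 21.

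WT1 decided much of the overlap between genotypes. In 11 subunits (Ndufa1, Ndufa2, Ndufa5, Ndufa13, Ndufb3, Ndufb6, Ndufb10, Ndufs5, Ndufs7, Ndufs8 and Ndufv1) WT1 read below both KO2 and KO3. Without WT1, 31 of 34 subunits had no overlap, where 20.7% of all genes had none, and the exceptions were Ndufa8, Ndufc1 and Ndufs8. The median difference without WT1 was −0.69.

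Within the series of animal numbers the direction was mostly the same and the size was not. Between the 4 higher-numbered animals the median difference was −0.70, and between the lower-numbered WT3 and KO3 it was −0.27, a comparison of 1 animal with 1. Of the 34 subunits 32 were lower in both, and Ndufa8 and Ndufs8 were higher in KO3 than in WT3 by 0.03 and 0.15. The difference was larger in the higher-numbered animals in 31 subunits, the exceptions being Ndufa6, Ndufb4 and Ndufc2. In Ndufa10 it was −1.11 against −0.03, and in Ndufs1 −0.82 against −0.56. With a single lower-numbered pair, the difference between the series was not tested.

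**Figure D4:**
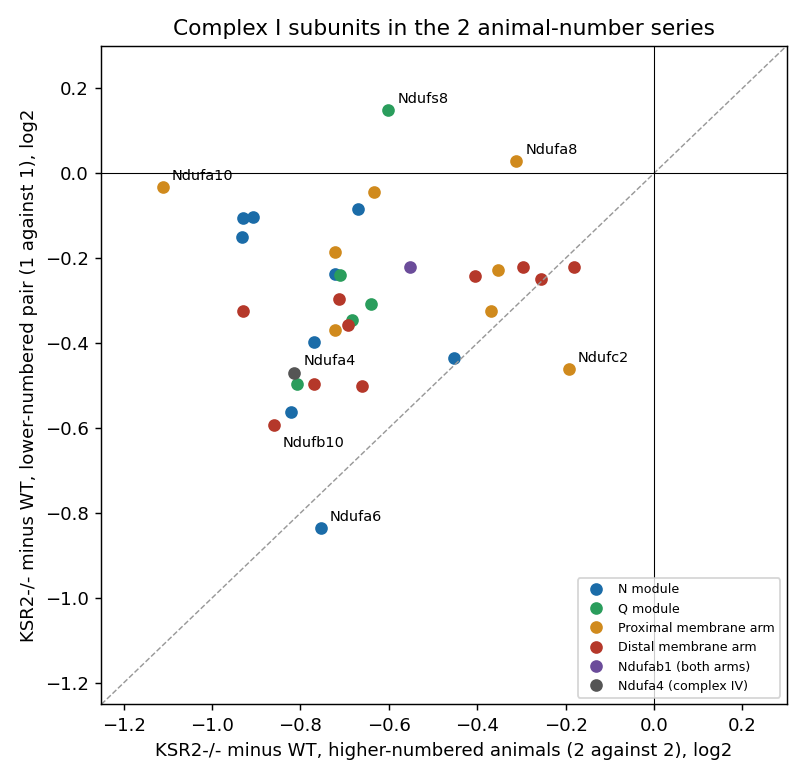
Difference between genotypes (log2 intensity) of each subunit within the 4 higher-numbered animals, x axis, against that within the lower-numbered pair of 1 WT and 1 KSR2-/- animal, y axis; each point is a subunit and the dashed line marks equal differences. Of 34 points 32 lie below 0 on both axes, and 31 have a larger difference in the higher-numbered animals.

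Marker genes of other cells also differed between the KSR2-/- arrays. All 10 macrophage markers, Adgre1, Cd68, Itgam, Csf1r, Mrc1, Lyz2, Cd14, Fcgr1, Itgax and Trem2, were higher in KSR2-/-, with a median difference of 1.23. Their summed linear intensity was 8031 to 8668 in WT, and 23199, 21013 and 9188 in KO1, KO2 and KO3. The 7 measured adipocyte markers had a median difference of −0.21, with 5 lower. Their sum was 42748 to 50285 in WT, and 30631, 37081 and 52510 in KO1, KO2 and KO3. KO3, the KSR2-/- array on which the subunits deviated least, had sums near those of WT, but the macrophage sum is dominated by bright probe sets. On KO3 Cd68, Itgax and Trem2 read 8.84, 7.60 and 6.43, above the WT values of 7.55 to 7.95, 5.46 to 6.14 and 5.25 to 5.34. Of the 10 macrophage markers, however, 3 read lower in KO3 than in WT3. Their median difference was 0.28 in that pair and 1.42 between the higher-numbered animals. Of 7 brown or beige adipocyte markers, a list that shares Cox7a1 and Cox8b with complex IV, 6 were lower and 1 higher. Their median difference was −0.29. All 5 measured stromal progenitor markers were lower, with a median of −0.33. The part of all these cells in the differences was not tested, and in bulk tissue fewer cells of a type and less RNA per cell cannot be told apart.

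Different probe sets of a subunit mostly had the same direction. The 34 subunits had 76 single-gene probe sets, and 20 subunits had several. Of the 42 that were not the brightest of their gene, 37 were lower in KSR2-/-, with a median difference of −0.42. The 5 of opposite sign belonged to Ndufa12, Ndufab1, Ndufb2 and Ndufs4. For Ndufs4, the brightest probe set had a mean of 9.74 in WT and a difference of −0.67, and a dim one with a mean of 5.29 had a difference of 0.41. For Ndufa12, 3 probe sets with WT means from 10.92 to 11.80 differed by −0.66, −0.71 and −0.79, and a dim one with a mean of 3.36 by 0.23. None of the 76 passed the test when every probe set was fitted on its own, the lowest adjusted p by limma being 0.305.

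Assembly factors are proteins that build complex I without remaining in it. Of 19 listed assembly factors 18 were measured and 15 were lower, with a median of −0.46. At an unadjusted p under 0.05, 4 were lower (5.38% of all genes). Nubpl, which delivers iron-sulfur clusters to the complex, read 8.45, 8.94 and 8.80 in WT and 7.68, 8.21 and 8.17 in KSR2-/-, without overlap and with a difference of −0.71 (SE 0.22, adjusted p = 0.294 by limma). Ndufaf8 differed by −0.54 (SE 0.17, adjusted p = 0.308 by limma), and Ndufaf4 by 0.13 in the other direction. Among 11 measured genes of iron-sulfur cluster assembly 9 were lower, with a median of −0.38. Of these, Hscb, a cochaperone of cluster transfer, differed by −0.40, Isca1, which helps to form 4Fe-4S clusters, by −0.52, and Iba57, which acts with it, by 0.31. Ndufb1, a subunit outside the list, had a dim probe set with a WT mean of 6.37 and differed by 0.15 (SE 0.20).

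Genes on either side of ubiquinone read lower as well. All 8 listed genes of other routes into ubiquinone were lower, from −1.95 to −0.35 with a median of −0.79. At an unadjusted p under 0.05, 6 were lower (5.38% of all genes). The list includes Etfa and Etfb, subunits of an electron carrier that hands its electrons to Etfdh and does not itself reduce ubiquinone. Chdh, choline dehydrogenase, read 8.43, 9.29 and 8.11 in WT and 6.19, 6.92 and 6.86 in KSR2-/-, a difference of −1.95 (SE 0.35, adjusted p = 0.193 by limma). Sqor, which oxidises sulfide, read 10.55, 10.78 and 11.02 in WT and 9.40, 9.68 and 9.95 in KSR2-/-, a difference of −1.11 (SE 0.21, adjusted p = 0.197 by limma). In both genes all KSR2-/- values were below all WT values. Of 11 measured genes for the synthesis or handling of ubiquinone itself 9 were lower, with a median of −0.54: Coq8a, a kinase-like protein that maintains its synthesis, differed by −1.22 (SE 0.24), Coq2, which attaches the isoprenoid tail, by −0.94 (SE 0.30), and Coq10b, a ubiquinone-binding protein, by 0.69 (SE 0.25).

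The other respiratory complexes had a median difference of −0.43 over 43 measured genes, of which 40 were lower (55.6% of all genes). At an unadjusted p under 0.05, 15 were lower (5.38% of all genes), and 18 did not overlap (8.56%). Complexes II and III were at the level of complex I, with medians of −0.63 over 4 genes and −0.65 over 9, and no gene of either was higher. Sdha and Sdhb of complex II differed by −0.80 and −0.82, and Cyc1 and Uqcrc2 of complex III by −0.80 and −0.78. In complexes IV and V the medians were −0.31 over 13 genes and −0.36 over 17. Cox8b, the form of this subunit found in muscle and brown fat, differed by −1.73, Cox6c by −0.48 and Cox4i2 by 0.21. Of complex V, Atp5f1c differed by −0.65, Atp5me by −0.52 and Atp5if1, an inhibitor of ATP synthase, by 0.61. No difference between the complexes was tested, and no gene named here from another list passed the test over all genes.

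**Figure D5:**
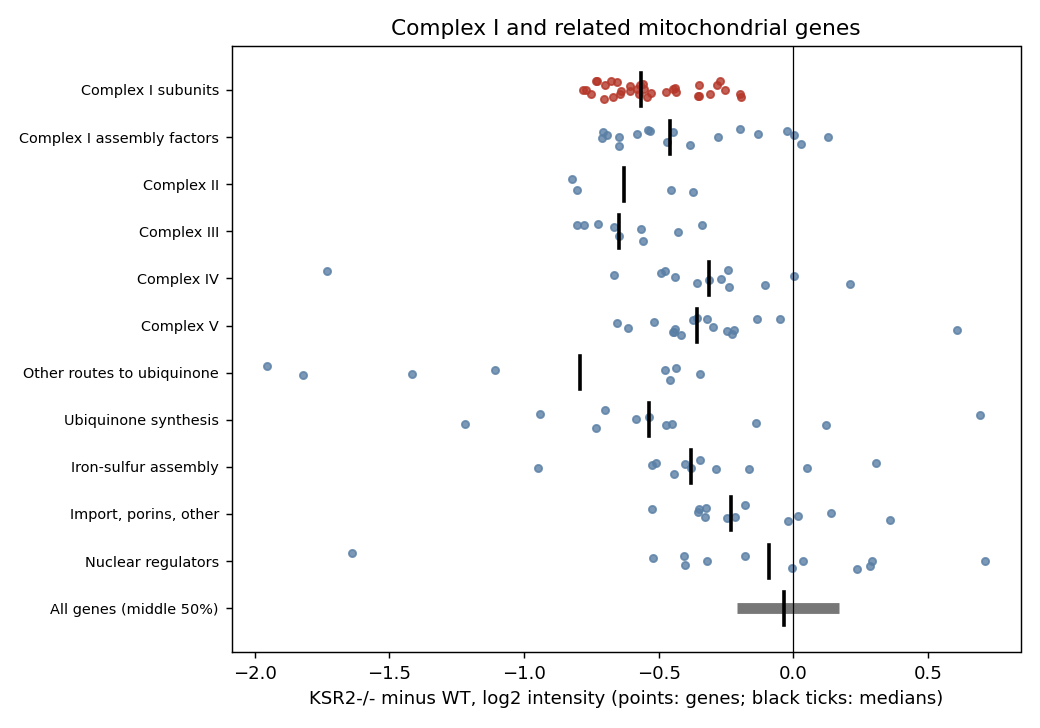
Log2 difference between genotypes of each measured gene in the lists of complex I subunits, its assembly factors and related genes. Points are genes, the vertical tick is the list's median, and the grey bar spans the middle 50% of all genes. In the lists of complexes I, II and III and of other routes into ubiquinone, all genes lie below 0. Their medians are −0.57, −0.63, −0.65 and −0.79, while the regulators spread on both sides of 0 around −0.09. Ndufb1, a complex I subunit outside the list, is not plotted and differed by 0.15.

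General mitochondrial genes and regulators gave smaller medians. Of 12 measured genes of mitochondrial import, porins and other mitochondrial proteins 9 were lower, with a median of −0.23, and 0 were lower at an unadjusted p under 0.05. Cs, citrate synthase, differed by −0.52 (SE 0.24), the chaperone gene Hspd1 by −0.35 (SE 0.17) and Tomm40, the import channel of the outer membrane, by 0.36 (SE 0.26). Of 12 nuclear regulators of respiratory genes 7 were lower, with a median of −0.09. Ppargc1a, which codes for the coactivator PGC-1alpha, read 5.57, 5.61 and 4.69 in WT and 3.63, 3.40 and 3.92 in KSR2-/-, without overlap and at a low level, a difference of −1.64 (SE 0.29, adjusted p = 0.193 by limma). Pprc1, a related coactivator, read 6.36, 6.83 and 6.99 in WT and 7.15, 7.67 and 7.49 in KSR2-/-, so that its values were higher without overlap, with a difference of 0.71 (SE 0.23, adjusted p = 0.308 by limma).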

How the data were processed

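The intensity values deposited by the authors were made with RMA, per the submitters' processing notes, which give no version; the range of the values (array medians 22.4 to 24.2) showed a linear scale. RMA is made to bring arrays to a common distribution, but the deposited values still differed between arrays. The summed linear intensity over the 18193 genes ran from 4341572 in WT1 to 5471787 in WT2. Log2 was taken of each deposited intensity with no pseudocount, since the lowest was 2.96. Of 45101 probe sets, 64 were controls, 34945 had 1 gene symbol, 932 had several and 9160 had none; 34741 were matched to RefSeq genes. Where a gene had several single-gene probe sets, the brightest by its mean of 6 arrays was taken. A two-sided limma fit (version 3.58.1 under R 4.3.3, lmFit, then eBayes with no trend) covered 18193 genes, after the procedure was tested on simulated data. The median SE was 0.22, and 3 arrays per group limit the precision; an exact permutation test of 3 against 3 cannot go below 0.1.

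Replicates were numbered in accession order, the labels pair none, and p-values measure the spread between animals. The members and lists were chosen with earlier results of these data known. Values on every array are given for the core subunits, Ndufab1, Ndufa4, the members of each module with the smallest unadjusted p and the member with the highest difference; of other lists, the genes with the smallest unadjusted p and the one most opposed to the median are named. Alternatives were the mean of probe sets, every probe set, a filter at the median level, quantile normalization repeated, centring on array medians, eBayes with trend, the animal number series as a block, a Gapdh covariate and each array left out.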

Additional observations from a re-analysis of the deposited data

How the results depend on the processing

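The precision is limited by 3 arrays per genotype. Over 15 alternatives the number of subunits past the adjusted threshold by limma was 0, except for 1 (Ndufa10) without KO3; leaving out each array gave 0 to 1. The 34 lower subunits became 32 without KO1 and stayed at 34 with each other array left out. The median of −0.57 ran from −0.72 to −0.33 with each array left out. The 12 subunits lower at an unadjusted p under 0.05 became 5 with the Gapdh difference as a covariate (4.62% of all genes, against 5.38%), and ran from 1 to 18 with each array left out. The 13 subunits without overlap became 20 with quantile normalization repeated and 19 with arrays centred on their medians, and ran from 13 to 31 with each array left out. The share of all genes, 8.56%, rose to 12.1% and 10.5%, and to between 11.2% and 20.7%. Centring moved the median of all genes from −0.04 to −0.08. The higher-numbered animals alone, an alternative chosen after seeing the data, gave 10 subunits lower at an unadjusted p under 0.05 (5.62% of all genes), 19 without overlap (21.1%) and a median of −0.70. With a block for the series of animal numbers, the counts were 0 past the threshold and 10 lower at an unadjusted p under 0.05 (5.73% of all genes). Of 239 values of the 16 named subunits under these alternatives, 238 kept their direction and side of the threshold and 0 turned. As none passed in the main fit, keeping the side only meant staying above an adjusted p of 0.05. The sizes moved more: Ndufs8 ran from −0.64 to −0.04, Ndufa2 from −0.67 to −0.07 and Ndufa4 from −0.86 to −0.59. Over all genes, 816 passed without KO3 and 0 without KO1. Of these changes with the processing, the cause was not tested.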
